A study of Mus musculus with 6 samples.

Results

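Expression of 10 genes of the MHC class I pathway and the immunoproteasome was examined in GC-2spd cells with and without exposure to fine particulate matter (PM2.5). The 10 genes, H2-K1, H2-D1, B2m, Tap1, Tap2, Tapbp, Psmb8, Psmb9, Psmb10 and Nlrc5, were chosen from values measured in these libraries in the comparison of PM2.5 with control. They are 10 of the 54886 genes listed, and all 10 were found by symbol and passed the filter on low values. Because of that choice, their differences between the groups are given as a description, with no p-value for any of them. How many of them a fit over all genes called is stated for the settings run, and nothing is read from it.

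GC-2spd is a spermatocyte-derived cell line of BALB/c background. In the control group (0 μg/mL PM2.5, 48 h) the labels name normal medium, to which the study's methods add PBS, and in the PM2.5 group 100 μg/mL for the same time. The methods give the particles as a reference material of urban particulate matter suspended in PBS. RNA of the whole culture was sequenced in 3 libraries of each group, 6 in all. The labels number the libraries of a group but do not say that they came from separate cultures. The study's statistics section gives quantitative data as means of 3 experiments unless noted otherwise, and does not name these libraries. The p-values therefore measure the spread between these samples, which may be technical. The level of a gene is given as FPKM, the number of fragments assigned to it divided by its length and by the scaling factor of the library, so that levels of different genes can be set side by side. Between 16209346 and 18003166 reads assigned to genes were recovered from the FPKM per library, and between 157 and 15430 of them belonged to each of the 10 genes.

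MHC class I molecules display peptides from inside the cell at its surface, where cytotoxic T cells read them. Each consists of a heavy chain, β2-microglobulin and a peptide that was cut by the proteasome, carried into the endoplasmic reticulum by the TAP transporter and fitted to the groove with the help of tapasin. Interferons are known to raise most of these genes together and to replace the catalytic subunits of the constitutive proteasome by those of the immunoproteasome, and NLRC5 is known as the transactivator of class I genes. In the testis, spermatogenic cells are known for little class I at the surface.

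GC-2spd is 1 line, immortalised with SV40 large T antigen and a temperature-sensitive p53, and it does not stand for spermatocytes of a testis. Defining markers of male germ cells were near 0. None of 16 markers had a mean FPKM of 1, Dazl, Mael, Piwil1, Spo11, Hormad1 and Tnp1 were at 0 in every library, and the sum of all 16 lay between 0.307 and 2.73, with Sycp3 the most abundant. Of 6 Sertoli cell markers only Gata4 passed a mean FPKM of 1, Fshr was at 0, and the sum was 18.8, 18.0 and 19.2 in control replicates 1 to 3 and 23.7, 20.8 and 12.3 in PM2.5 replicates 1 to 3. Of 5 Leydig cell markers only Star passed it, Hsd3b1 was at 0, and the sum lay between 1.74 and 2.59. Among 7 peritubular and fibroblast markers, Acta2, Col1a1, Col1a2 and Pdgfra passed it, and the sum was 672, 748 and 684 in control and 641, 638 and 383 in PM2.5, most of it Col1a1. Within that list the genes moved apart. Col1a2, which encodes a chain of type I collagen, had an FPKM of 202, 199 and 201 in control and of 135, 130 and 115 in PM2.5, every PM2.5 library being below every control library as for most of the 10 genes. Acta2, smooth muscle actin, had 41.6, 88.3 and 43.3 in control and 59.2, 58.1 and 59.5 in PM2.5, higher than in control replicates 1 and 3 and lower than in control replicate 2. The part of these markers in the results was not tested. Of 8 leukocyte markers, 6 were at 0 in every library, among them Ptprc, Adgre1, Cd3e, Itgam and Ncr1. The sum of the 8 was 1.07, 15.5 and 0.795 in control and 1.48, 1.10 and 1.87 in PM2.5, nearly all of it Cd68, a lysosomal glycoprotein of macrophages that other cells also carry.

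Control replicate 2 stood apart from the other 5 libraries. In the 11884 genes whose FPKM averaged 1 or more, the log2(FPKM + 1) of control replicates 1 and 3 correlated at 0.992, and control replicate 2 correlated at 0.732 to 0.780 with the others. Mitochondrial genes took 14.5% of its reads and 1.65% to 1.95% of the reads of the other libraries. PM2.5 replicate 3 was set off to a smaller degree, with a correlation of 0.950 and 0.958 with the other PM2.5 libraries, which correlated with each other at 0.991. It correlated with control replicates 1 and 3 at 0.972. Results are therefore given with and without control replicate 2, and the part of its mitochondrial share in them was not tested.

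Of the 10 genes, 8 had a promoter window in the RefSeq table (GRCm38.p6), from 250 bases before to 50 bases after the start of the gene in RefSeq; Tap2 and Nlrc5 had none, and H2-K1 had 2 overlapping windows, of which the first is shown. The RefSeq start can lie downstream of the outermost start in GENCODE, from which the gene positions given with the values are taken, and the windows of 4 genes, H2-D1, Psmb8, Psmb9 and Tapbp, lie inside the GENCODE gene. Windows of 5 genes are shown, which stand for the heavy chains, the light chain and the immunoproteasome. For each of these genes every PM2.5 library was below every control library in the FPKM as deposited. Capitals mark 4 motifs, searched on both strands: the IRF motif AANNGAAA, the GAS motif TTCNNNGAA, the X2 box letters TGACG, and the NF-κB consensus. The H2-K1 window lies on the minus strand at chr17:34000298-34000597, the H2-D1 window on the plus strand at chr17:35262844-35263143 and the B2m window on the plus strand at chr2:122147437-122147736. The Psmb8 window lies on the plus strand at chr17:34197945-34198244 and the Psmb9 window on the minus strand at chr17:34187281-34187580.
H2-K1: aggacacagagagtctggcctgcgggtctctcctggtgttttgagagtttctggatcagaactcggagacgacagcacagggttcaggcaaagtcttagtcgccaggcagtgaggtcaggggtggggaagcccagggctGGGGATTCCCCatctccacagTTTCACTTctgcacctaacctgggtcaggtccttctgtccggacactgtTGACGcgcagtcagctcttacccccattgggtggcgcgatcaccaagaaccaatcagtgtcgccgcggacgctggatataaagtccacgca
H2-D1: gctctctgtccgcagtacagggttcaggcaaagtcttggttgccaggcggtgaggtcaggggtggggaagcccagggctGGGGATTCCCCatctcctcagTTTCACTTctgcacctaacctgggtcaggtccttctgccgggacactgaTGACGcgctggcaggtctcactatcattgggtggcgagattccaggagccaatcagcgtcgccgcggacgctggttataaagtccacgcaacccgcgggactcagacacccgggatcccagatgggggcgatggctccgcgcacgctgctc
B2m: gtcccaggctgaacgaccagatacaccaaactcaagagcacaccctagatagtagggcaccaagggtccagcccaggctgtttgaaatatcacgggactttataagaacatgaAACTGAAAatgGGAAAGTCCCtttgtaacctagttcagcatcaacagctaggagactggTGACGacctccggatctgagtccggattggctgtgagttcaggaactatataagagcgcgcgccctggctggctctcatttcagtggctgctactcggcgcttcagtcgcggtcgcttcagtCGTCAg
Psmb8: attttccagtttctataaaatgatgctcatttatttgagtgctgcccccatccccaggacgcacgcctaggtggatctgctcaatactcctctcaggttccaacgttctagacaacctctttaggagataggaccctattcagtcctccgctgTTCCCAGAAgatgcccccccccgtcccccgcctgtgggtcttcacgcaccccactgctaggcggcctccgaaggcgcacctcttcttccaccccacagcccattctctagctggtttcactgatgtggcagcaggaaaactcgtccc
Psmb9: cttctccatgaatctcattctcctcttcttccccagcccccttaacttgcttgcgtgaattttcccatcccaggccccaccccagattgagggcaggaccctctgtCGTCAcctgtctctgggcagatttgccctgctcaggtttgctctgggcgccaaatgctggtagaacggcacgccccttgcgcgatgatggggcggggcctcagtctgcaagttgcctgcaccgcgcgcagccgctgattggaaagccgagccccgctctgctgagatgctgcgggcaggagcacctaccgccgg

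The IRF motif was in the windows of 3 of the 8 genes, H2-K1, H2-D1 and B2m, and in 23.9% of all 32851 windows. The longer interferon-stimulated response element GAAANNGAAA, which contains the IRF motif, was in the B2m window only, against 3.44% of all windows. The GAS motif was in the Psmb8 window only, against 8.30% of all windows. The X2 letters were in the windows of 5 genes, H2-K1, H2-D1, B2m, Tap1 and Psmb9, against 20.8%, and the NF-κB consensus in 3, H2-K1, H2-D1 and B2m, against 8.46%. The letters CCAAT, left in lower case, were in 6 of the 8, against 37.4%. The H2-K1 and H2-D1 windows were identical at 89.5% of their aligned bases, and the windows of Psmb9 and Tap1, which start in opposite directions, shared 275 bases. A match is a description of the letters and not of binding.

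H2-K1 and H2-D1 encode the heavy chains of the classical class I molecules. H2-K1 (ENSMUSG00000061232, chr17:33996017-34000347, minus strand) had an FPKM of 205, 192 and 196 in control replicates 1 to 3 and of 152, 142 and 114 in PM2.5 replicates 1 to 3. On the deposited scale all 3 PM2.5 libraries were below all 3 control libraries, PM2.5 replicate 3 was the lowest, and control replicate 2 lay close to the other controls. The mean was 198 ± 6.41 (SD, n = 3) in control and 136 ± 19.7 (SD, n = 3) in PM2.5, 31.2% lower, and 32.2% lower without control replicate 2. In a bulk culture, fewer cells that express a gene and less RNA per cell cannot be told apart.

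H2-D1 (ENSMUSG00000073411, chr17:35262730-35267499, plus strand) had an FPKM of 158, 146 and 148 in control and of 136, 129 and 86.6 in PM2.5. The groups did not overlap on the deposited scale, and PM2.5 replicate 3 was well below the other PM2.5 libraries. The mean was 151 ± 6.17 in control and 117 ± 26.7 in PM2.5 (SD, n = 3 each), 22.2% lower, and 23.2% lower without control replicate 2. Leaving out PM2.5 replicate 3 instead moved its log2 fold change of FPKM + 1 from -0.39 to -0.18. H2-K1 shared 22.8% and H2-D1 26.9% of their 31-base sequences with other genes, 11.1% and 13.8% with each other, so reads of either can be split or lost. BALB/c mice carry other class I alleles than the C57BL/6 reference genome, which limits the absolute levels of both.

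B2m, which encodes the light chain β2-microglobulin, shared no 31-base sequence with another gene. B2m (ENSMUSG00000060802, chr2:122147686-122153083, plus strand) had an FPKM of 967, 1038 and 957 in control and of 597, 697 and 849 in PM2.5. The groups did not overlap on the deposited scale, but here PM2.5 replicate 3 was the highest of its group and nearest to the controls. The mean was 987 ± 44.4 in control and 714 ± 127 in PM2.5 (SD, n = 3 each), 27.6% lower, and 25.7% lower without control replicate 2.

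**Figure D1:**
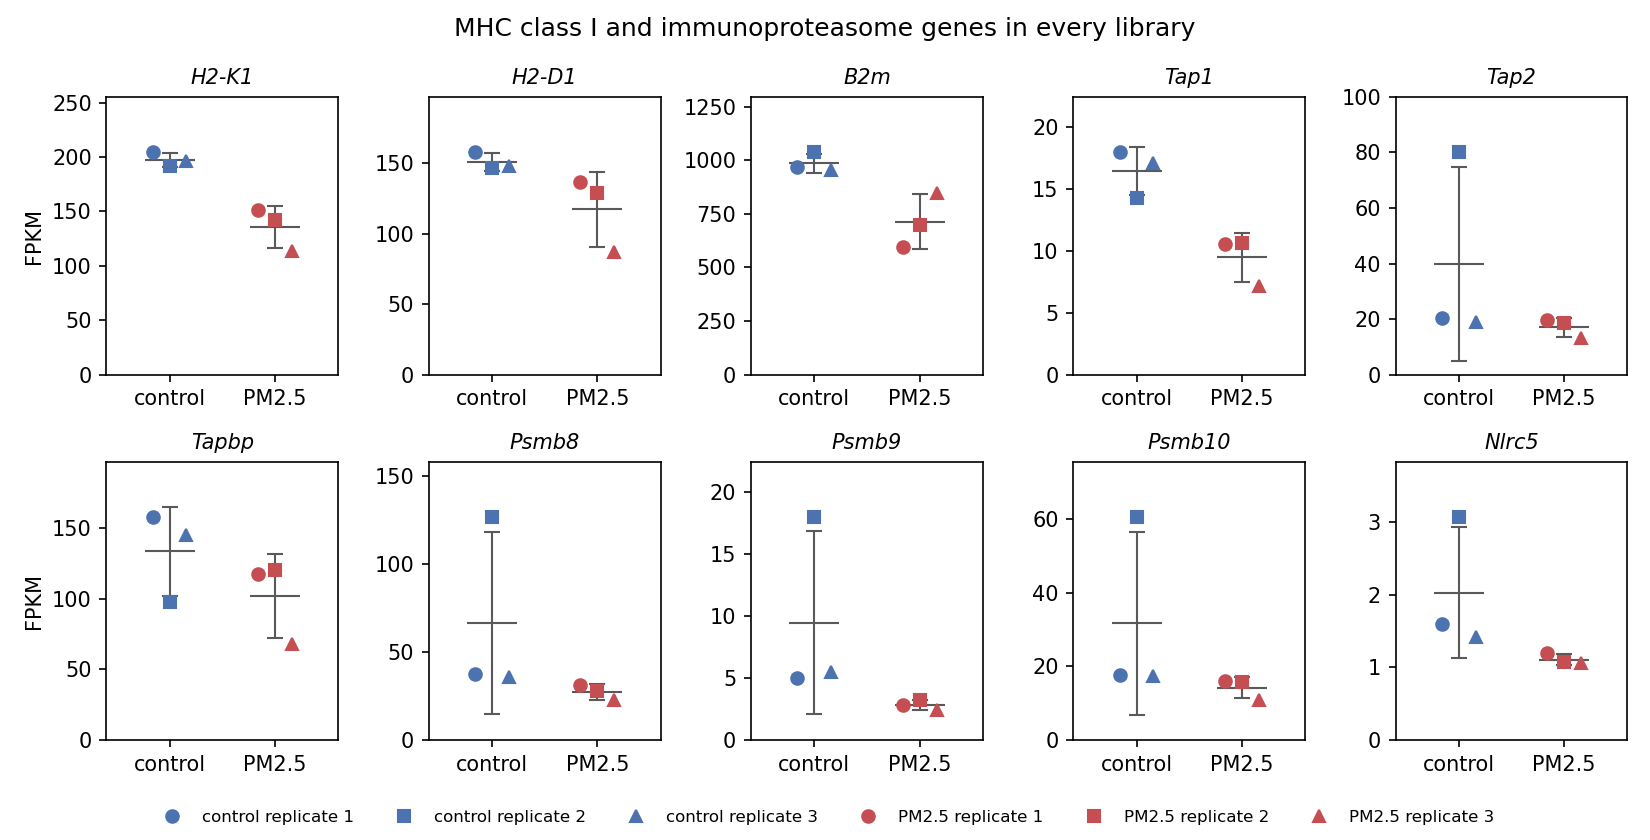
FPKM (vertical axes, each from 0) of the 10 genes in the 3 control and 3 PM2.5 libraries; each symbol is a library, and the bar and whiskers are the group mean and SD. Control replicate 2 is far above its replicates for Tap2, Psmb8, Psmb9 and Psmb10, and the groups overlap for Tap2 and Tapbp.

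Tap1 and Tap2 encode the pair of chains of the transporter that moves peptides into the endoplasmic reticulum. Tap1 (ENSMUSG00000037321, chr17:34187553-34197225, plus strand) had an FPKM of 17.9, 14.2 and 17.1 in control and of 10.6, 10.6 and 7.18 in PM2.5. The groups did not overlap, and control replicate 2 was the lowest control. The PM2.5 mean of 9.45 ± 1.97 was 42.4% below the control mean of 16.4 ± 1.93 (SD, n = 3 each), and 46.0% below it without control replicate 2.

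Tap2 (ENSMUSG00000024339, chr17:34203527-34216321, plus strand) had an FPKM of 20.5, 80.1 and 19.0 in control and of 19.6, 18.5 and 13.2 in PM2.5. Control replicate 2 was 4.06 times the mean of the other controls, and PM2.5 replicate 1 lay between those controls, so the groups overlapped. The PM2.5 mean was 57.0% below the control mean with all libraries and 13.1% below it without control replicate 2. Tap2 shared 14.3% of its 31-base sequences with other genes. The ratio of Tap1 to Tap2, in FPKM, was 0.876, 0.178 and 0.900 in control and 0.538, 0.573 and 0.542 in PM2.5. The PM2.5 ratios were close to each other and lay between that of control replicate 2 and those of the other controls.

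Tapbp encodes tapasin, which holds empty class I molecules at the transporter. Tapbp (ENSMUSG00000024308, chr17:33915899-33929292, plus strand) had an FPKM of 158, 97.9 and 145 in control and of 118, 121 and 67.9 in PM2.5. Control replicate 2 was below PM2.5 replicates 1 and 2, so the groups overlapped with it and did not overlap without it. The PM2.5 mean was 23.7% below the control mean, and 32.7% below it without control replicate 2. Leaving out PM2.5 replicate 3 instead moved the log2 fold change of FPKM + 1 of Tapbp from -0.40 to -0.14. Tapbp shared 26.9% of its 31-base sequences with other genes, 22.1% with Gm19412, which overlaps it on the opposite strand.

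Psmb8, Psmb9 and Psmb10 encode the catalytic subunits of the immunoproteasome, which take the places of the constitutive subunits encoded by Psmb5, Psmb6 and Psmb7. Psmb8 (ENSMUSG00000024338, chr17:34197721-34201454, plus strand) had an FPKM of 37.3, 127 and 35.9 in control and of 31.2, 27.9 and 22.6 in PM2.5. Psmb9 (ENSMUSG00000096727, chr17:34181987-34187764, minus strand) had an FPKM of 4.98, 17.9 and 5.46 in control and of 2.85, 3.22 and 2.37 in PM2.5. Psmb10 (ENSMUSG00000031897, chr8:105935735-105938444, minus strand) had an FPKM of 17.5, 60.5 and 17.3 in control and of 16.1, 15.7 and 10.8 in PM2.5. For all 3 genes every PM2.5 library was below every control library, and control replicate 2 was far above its replicates, by 3.46, 3.44 and 3.47 times for Psmb8, Psmb9 and Psmb10.

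The difference between the groups depended on that library. For Psmb8 the PM2.5 mean was 59.1% below the control mean with control replicate 2 and 25.5% below it without. For Psmb9 it was 70.2% below and then 46.1%, and for Psmb10 55.3% and then 18.5%. Psmb8 shared 13.7% of its 31-base sequences with other genes. Psmb9 and Tap1 overlap on opposite strands and shared 4.79% and 4.09% of their 31-base sequences, mostly with each other. The sources used here do not say whether reads were counted by strand, so reads from the overlap cannot be told apart.

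The constitutive subunits differed among themselves in control replicate 2. Psmb5 had an FPKM of 90.8, 230.3 and 92.5 in control and of 75.5, 75.5 and 75.8 in PM2.5, and Psmb6 of 92.7, 352 and 84.8 in control and of 96.1, 94.3 and 95.1 in PM2.5. Psmb7 had an FPKM of 36.7, 5.27 and 38.7 in control and of 42.3, 42.2 and 46.6 in PM2.5. In control replicate 2, Psmb5 and Psmb6 were thus far above and Psmb7 far below the other controls. In the remaining libraries Psmb5 was lower in PM2.5 than in control, whereas Psmb6 and Psmb7 were higher.

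The ratio of an inducible subunit to its constitutive counterpart was computed within each library. Psmb8 over Psmb5 was 0.411, 0.550 and 0.388 in control and 0.414, 0.369 and 0.298 in PM2.5, with PM2.5 replicate 1 inside the range of the controls. Psmb9 over Psmb6 was 0.0537, 0.0509 and 0.0644 in control and 0.0296, 0.0341 and 0.0250 in PM2.5. This was the only 1 of the 3 ratios in which control replicate 2 lay near its replicates, and the groups did not overlap. Psmb10 over Psmb7 was 0.477, 11.5 and 0.447 in control and 0.380, 0.371 and 0.232 in PM2.5, all PM2.5 libraries being lower.

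**Figure D2:**
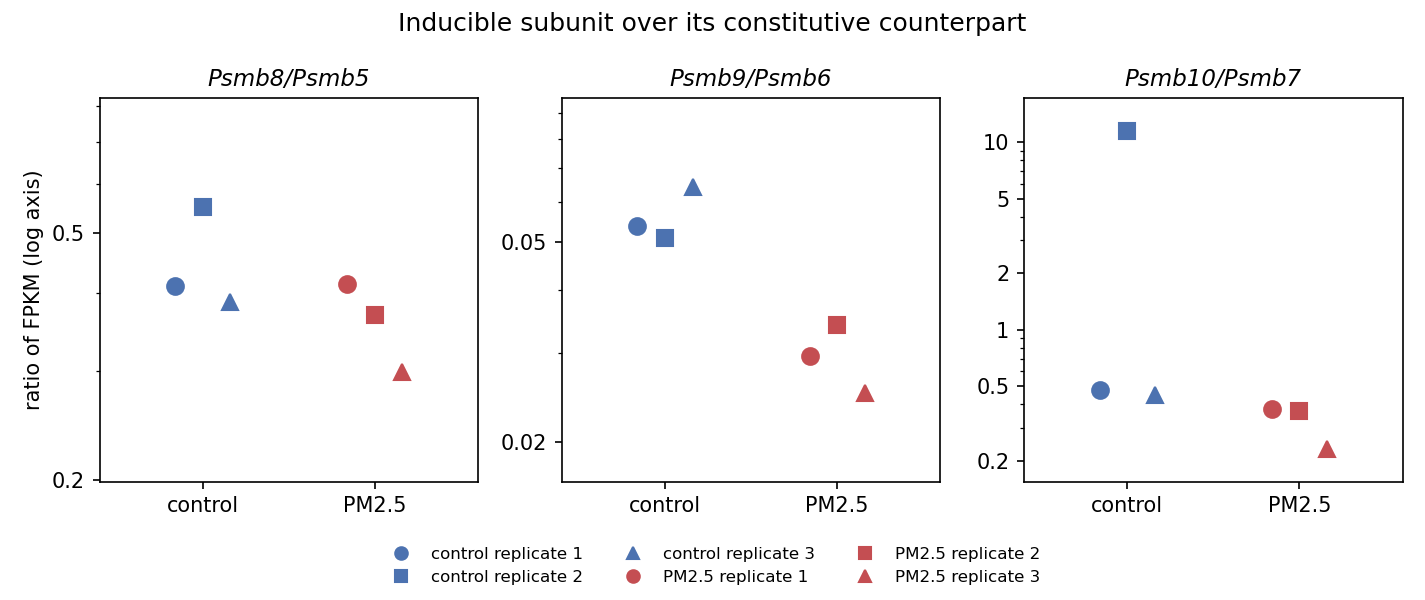
Ratio of the FPKM of each immunoproteasome subunit to that of its constitutive counterpart (log axes) in each library; symbols are libraries. Psmb9 over Psmb6 is lower in all 3 PM2.5 libraries, from 0.0250 to 0.0341, than in any control library, and Psmb10 over Psmb7 reaches 11.5 in control replicate 2.

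Nlrc5 was the least abundant of the 10 genes. Nlrc5 (ENSMUSG00000074151, chr8:94434356-94527272, plus strand) had an FPKM of 1.59, 3.07 and 1.42 in control and of 1.19, 1.08 and 1.06 in PM2.5, from 162 to 338 reads per library. The groups did not overlap, and control replicate 2 was 2.03 times the mean of the other controls. The PM2.5 mean was 45.4% below the control mean, and 26.5% below it without control replicate 2.

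The order of the 10 levels was the same in both groups: B2m, H2-K1, H2-D1, Tapbp, Psmb8, Tap2, Psmb10, Tap1, Psmb9 and Nlrc5. In PM2.5 the mean ± SD of H2-K1 and H2-D1, of H2-D1 and Tapbp, of Tap2 and Psmb10 and of Psmb10 and Tap1 overlapped, and the other neighbours were further apart. In control, where control replicate 2 widened the SD, all neighbours from H2-D1 down to Nlrc5 overlapped. Without that library Tap1 and Psmb10 changed places, at 17.5 and 17.4, and these 2 and the pair of H2-D1 and Tapbp were the neighbours that overlapped.

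On the log2(FPKM + 1) scale, which understates the change of low genes, the fold changes of PM2.5 against control lay between -1.25 (Psmb9) and -0.39 (H2-D1), with a median of -0.65. Without control replicate 2 they lay between -0.84 (Tap1) and -0.21 (Tap2), with a median of -0.43. The median over all 11884 genes tested was 0.02 and then -0.01. Leaving out that library moved Tap2 from -0.87 ± 0.57 to -0.21 ± 0.19 (SE), Psmb10 from -0.88 ± 0.52 to -0.30 ± 0.19, and Psmb8 from -1.01 ± 0.52 to -0.42 ± 0.15. Psmb9 went from -1.25 ± 0.47 to -0.71 ± 0.13 and Nlrc5 from -0.48 ± 0.25 to -0.25 ± 0.11. Tapbp moved the other way, from -0.40 ± 0.34 to -0.61 ± 0.28. H2-K1 (-0.55 and -0.57), H2-D1 (-0.39 and -0.41), B2m (-0.48 and -0.44) and Tap1 (-0.75 and -0.84) moved little when control replicate 2 was left out. Without PM2.5 replicate 3 instead, H2-D1 moved from -0.39 to -0.18 and Tapbp from -0.40 to -0.14. Leaving out any other single library moved none of the 10 by over 1.5 times.

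**Figure D3:**
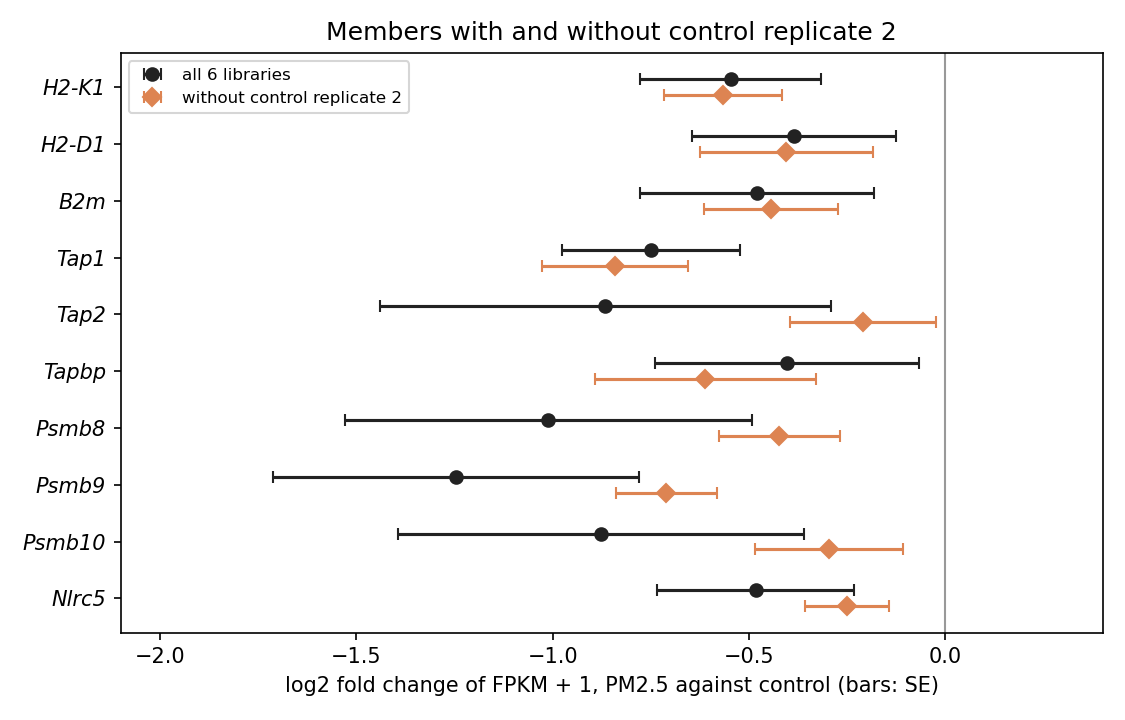
Log2 fold change of FPKM + 1 of the 10 genes, PM2.5 against control (horizontal axis), with all 6 libraries (circles) and without control replicate 2 (diamonds); bars are SE from limma. All 10 values are below 0 in both, and those of Tap2, Psmb8, Psmb9, Psmb10 and Nlrc5 are nearer to 0 without that library.

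Every PM2.5 library was below every control library for 8 of the 10 genes, and for 6.85% of all genes tested. With the FPKM rescaled to the total of recovered reads this held for 5 of the 10 and for 4.86% of all genes tested, as the groups of H2-K1, H2-D1 and B2m then overlapped. Without control replicate 2 this held for 9 of the 10, the exception being Tap2, and for 19.6% of all genes tested. With limma over all genes and Benjamini-Hochberg adjustment, 0 of the 10 were called at an adjusted p under 0.05, beside 7 of the 11884 genes called lower (0.0589%) and 4 called higher (0.0337%). With the rescaled FPKM, the genes called were 3 lower and 3 higher. Voom on the recovered reads also called 0 of the 10. Without control replicate 2, limma called 0 of the 10, beside 84 genes called lower (0.707%) and 34 called higher (0.286%). With PM2.5 replicate 3 left out as well, which was decided after its values were seen, 7 of the 10 were called lower, beside 23.6% of all genes. The libraries left out there were the farthest from their replicates, so the spread left was the smallest.

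The differences of both of these libraries from their replicates varied with the GC content of the genes. Across 11735 genes, which are not independent replicates, the difference of control replicate 2 from the mean of control replicates 1 and 3 in log2(FPKM + 1) correlated at 0.31 with the GC content of the exons and at -0.27 with log2 exon length. The difference of PM2.5 replicate 3 from the mean of PM2.5 replicates 1 and 2 correlated with GC content at -0.66. The 10 genes had a GC content between 41.2% (B2m) and 58.4% (Tapbp), with a median of 54.8% beside 49.9% for all genes tested. Of the 10, 9 were in the upper 2 quintiles of GC content, where PM2.5 replicate 3 had a median difference of -0.19 and -0.52, and B2m was in the lowest, where it had 0.35.

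In PM2.5 replicate 3, the 9 genes with higher GC content were below the mean of the other PM2.5 libraries and B2m was above it. In control replicate 2 the members did not lie along the median of genes of like GC content, where the upper 2 quintiles had a median difference of 0.21 and 0.69. Tap2, Psmb8, Psmb9 and Psmb10 were higher there by more than 1, as were 20.6% of all genes tested, while another 20.5% of all genes were lower by more than 1, and H2-K1, H2-D1, Tap1 and Tapbp were below 0. When each library was corrected for GC content and length, the median fold change of the 10 genes was -0.64, and with control replicate 2 and PM2.5 replicate 3 both left out it was -0.32, each in log2 and each chosen after the values were seen.

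**Figure D4:**
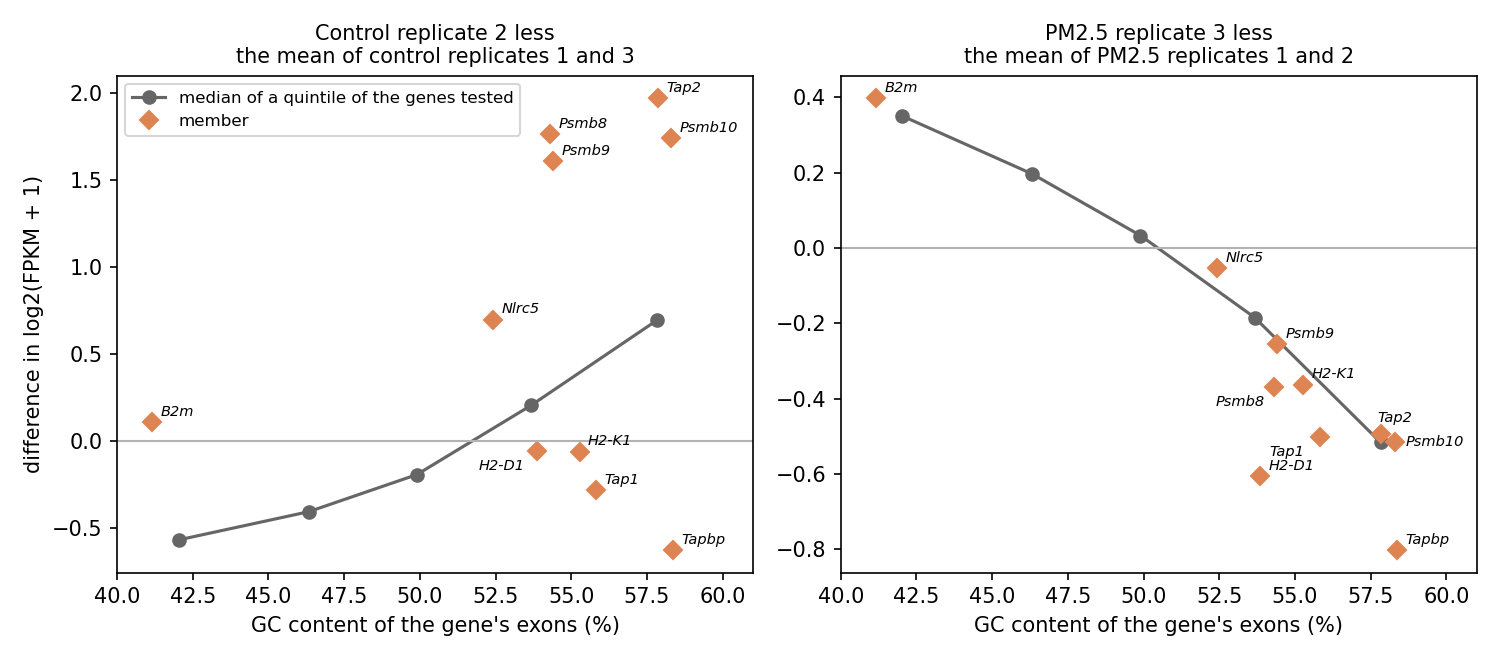
Difference in log2(FPKM + 1) of control replicate 2 (left) and PM2.5 replicate 3 (right) from the mean of the other replicates of the group, against the GC content of the exons in percent. Circles are medians of quintiles of the genes tested and diamonds the 10 genes, of which B2m is the only one below 50% GC content and the only one above 0 at right.

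Other genes of antigen presentation were described from 6 lists, which were chosen with earlier results of these data known. Counts and p-values of the list genes are therefore a description only. The lists hold 83 genes, of which 57 passed the filter on low values. Of these 57, limma called 0 at an adjusted p under 0.05 with all libraries, and 7 were at an unadjusted p under 0.05, all of them lower, beside 1.88% of all genes tested lower and 1.92% higher. Voom also called 0. Without control replicate 2, limma called 4 lower and 0 higher, beside 0.707% and 0.286% of all genes tested. At an unadjusted limma p under 0.05 there were 14 lower and 1 higher, beside 7.63% and 8.23% of all genes tested. The median log2 fold change of the 57 was -0.09 with all libraries and -0.14 without control replicate 2. On the deposited scale, every PM2.5 library was below every control library for 14 of them and above for 6, beside 6.85% and 8.35% of all genes tested. Without control replicate 2 these counts were 24 and 10, beside 19.6% and 17.7% of all genes tested.

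Of 21 other class I and class I-like chains, 12 passed the filter, with log2 fold changes between -1.59 and 0.37, a median of -0.38 and, without control replicate 2, of -0.26. H2-Q4, a non-classical heavy chain, had an FPKM of 54.1, 269.7 and 49.2 in control and of 30.2, 27.9 and 29.1 in PM2.5, so that the PM2.5 libraries lay close together below all controls. Its log2 fold change was -1.59 ± 0.66 (SE) with a limma Benjamini-Hochberg adjusted p of 0.875, and -0.81 ± 0.09 with 0.0404 without control replicate 2. H2-Q6 and H2-T23, the latter encoding the Qa-1 molecule that is read by NK cells, had log2 fold changes of -1.21 and -1.07, and -0.77 and -0.86 without control replicate 2. On the deposited scale, the groups did not overlap either for H2-Q7, H2-T22 and Fcgrt, which were lower in PM2.5, and for Hfe, which was higher. With the FPKM rescaled to the total of recovered reads, those of H2-T22 overlapped. H2-Q4 shared 53.1%, H2-Q6 51.8%, H2-Q7 39.2%, H2-T22 67.4% and H2-T23 25.8% of their 31-base sequences with other genes, so their levels are uncertain.

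The 12 genes of peptide trimming and loading all passed the filter, with a median log2 fold change of 0.07, and of -0.06 without control replicate 2. With all libraries, the 3 with the largest change were Canx (1.06), Npepps (0.28) and Tapbpl (0.26). Without control replicate 2 their values were 0.18, -0.14 and 0.13. The 3 largest without that library, named after their values were seen, were Calr (0.42), Thop1 (0.41) and Lnpep (-0.40), none of them called by limma. Canx encodes calnexin, a chaperone of new heavy chains, and had an FPKM of 160.1, 24.8 and 153 in control and of 163, 168 and 206 in PM2.5. Its value in control replicate 2 was far below all the others, and the PM2.5 libraries were above all controls. Tapbpl, a tapasin-related protein, was likewise higher in every PM2.5 library.

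Of 10 proteasome counterparts, activators and assembly factors, 9 passed the filter, with log2 fold changes between -1.08 (Psme2) and 1.08 (Psmb7), a median of -0.52 and, without control replicate 2, of 0.02. Psme1 and Psme2 encode the PA28 activator, which opens the proteasome and is raised by interferon. Psme1 had an FPKM of 35.4, 99.2 and 29.5 in control and of 21.99, 23.1 and 30.2 in PM2.5. Psme2 had an FPKM of 20.6, 100.5 and 20.5 in control and of 13.8, 13.8 and 22.02 in PM2.5. For both genes PM2.5 replicate 3 lay among control replicates 1 and 3 or above them, so the groups overlapped, unlike those of Psmb8, Psmb9 and Psmb10. Their log2 fold changes were -0.89 and -1.08, and -0.37 and -0.33 without control replicate 2. Psme3 was higher in every PM2.5 library.

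Of the class I transcription factors all 15 passed the filter, with a median log2 fold change of -0.10, and of -0.16 without control replicate 2. Stat2 and Irf9 carry the signal of type I interferon to its target genes. Irf9 had an FPKM of 18.0, 14.3 and 17.6 in control and of 7.26, 8.48 and 7.89 in PM2.5. Stat2 had an FPKM of 21.5, 141 and 16.3 in control and of 7.35, 6.55 and 6.43 in PM2.5. For both genes all PM2.5 libraries were below all controls by a wide margin. Control replicate 2 was far above its replicates for Stat2 and below them for Irf9.

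With all libraries neither gene passed limma's Benjamini-Hochberg threshold, with log2 fold changes of -0.99 ± 0.19 (adjusted p 0.372) for Irf9 and -2.30 ± 0.79 (0.875) for Stat2, ± being the SE. Without control replicate 2 both fell, by limma with Benjamini-Hochberg adjustment, with -1.09 ± 0.10 (adjusted p 0.0206) for Irf9 and -1.35 ± 0.15 (0.0349) for Stat2. Over all settings run, the limma adjusted p lay between 0.000689 and 0.988 for Irf9, 0.00228 and 0.988 for Stat2 and 0.000955 and 0.988 for H2-Q4. All of those fold changes were below 0. Rfxank, a subunit of the RFX complex that binds class I promoters, and Irf2 were also lower in every PM2.5 library, at -0.60 and -0.64, and at -0.26 and -0.38 without control replicate 2.

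Interferon genes themselves were at or near 0. Of 8 ligand genes, Ifna1, Ifna2, Ifna5, Ifng, Ifnl2 and Ifnl3 were at 0 in every library, and the highest value was 0.822 for Ifnb1 in control replicate 2. The 4 receptor genes passed the filter with log2 fold changes between -0.17 (Ifngr1) and 0.24 (Ifnar2), Ifngr2 having 0.07, and without control replicate 2 these were -0.37, 0.13 and 0.05. Ifnar2 was higher in every PM2.5 library than in any control library.

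Of 13 class II genes 5 passed the filter, with a median log2 fold change of -0.38, and of -0.42 without control replicate 2. Ciita, the class II transactivator, was at or near 0, with no value above 0.0176. Cd74, the class II invariant chain, had an FPKM of 2.22, 3.17 and 1.49 in control and of 0.437, 0.360 and 0.157 in PM2.5, all PM2.5 libraries being below all controls. Its log2 fold change was -1.30, and -1.11 without control replicate 2. Cd74 passed the filter only through the control libraries, with a mean FPKM of 2.29 there and of 0.318 in PM2.5. Its PM2.5 values rest on about 13, 11 and 5 reads, so the size of its change is uncertain. H2-Aa was also lower in every PM2.5 library, with -0.45 and -0.42, and H2-Ab1 had -0.38 and -0.59, its groups overlapping only with control replicate 2.

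**Figure D5:**
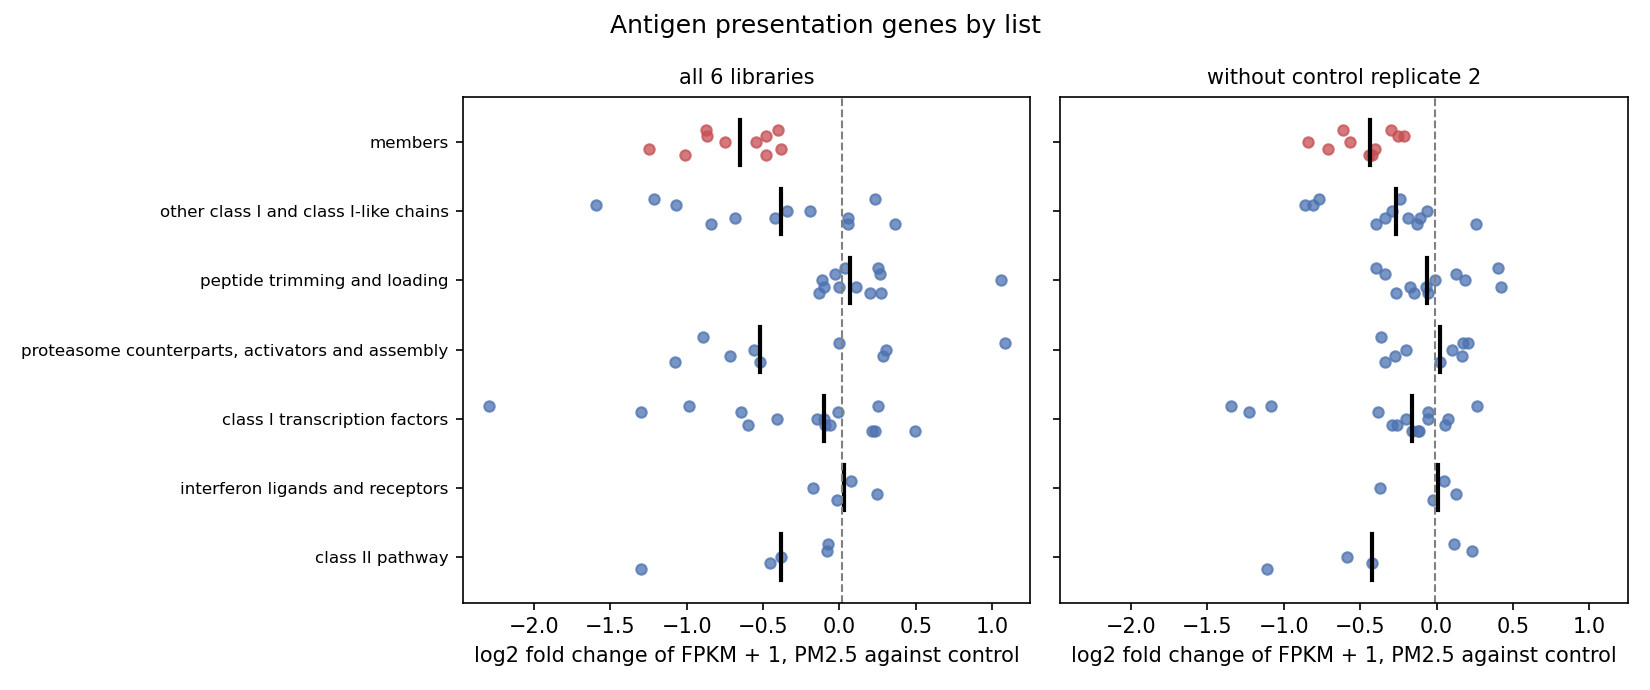
Log2 fold change of FPKM + 1, PM2.5 against control (horizontal axes), of each gene that passed the filter, by list, with all libraries (left) and without control replicate 2 (right). Dots are genes, red for the 10 members, short black lines are list medians and the dashed line is the median of all genes tested; the members' median is -0.65 at left and -0.43 at right.

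The 10 genes did not all vary in the same way across the 6 libraries. Over their 45 pairs, the correlation of log2(FPKM + 1) lay between -0.0144 and 0.997, with a median of 0.566; all pairs share the group difference and the libraries that stood apart. Among 7746 genes outside the lists whose FPKM averaged 5 or more, those most like the mean standardised level of the members over the 6 libraries were Col3a1, Trafd1, Ncaph2, Kdm4b and Fhod1, with a Pearson correlation between 0.991 and 0.996. Trafd1, a regulator of innate immune signalling, had an FPKM of 18.5, 22.1 and 16.9 in control and of 13.0, 13.2 and 10.5 in PM2.5. Col3a1, which encodes a fibrillar collagen, had an FPKM of 14.0, 17.8 and 13.6 in control and of 9.58, 9.61 and 7.52 in PM2.5. Both genes were picked for this likeness, so the order of their libraries follows from the choice.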

How the data were processed

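The authors prepared the libraries with an NEBNext Ultra kit and sequenced them on an Illumina Novaseq. Their processing notes name HISAT2 2.0.5, featureCounts 1.5.0-p3 and the build mm9. The authors deposited FPKM for each library. GENCODE M21 (GRCm38) supplied symbols, positions and exon lengths for 54495 of the 54886 gene identifiers. With these lengths, the FPKM of 98.4% of 25249 expressed genes corresponded to whole reads (within 0.05 or 0.1% of the reads, whichever was larger) in every library. The denominators so implied followed size factors and not library totals.

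As the files hold FPKM, limma 3.58.1 (trend and robust, R 4.3.3, statmod 1.5.0) was run on log2(FPKM + 1) for the 11884 genes whose FPKM averaged 1 or more, with Benjamini-Hochberg adjustment over all of them. It was tested on simulated data. Alternatives were a pseudocount of 0.1, no filter, scaling to total reads, voom on the recovered reads (with the implied denominators in place of TMM), a fit that was not robust, a replicate block, an added fold change threshold and leaving out each library. Leaving out 2 libraries together and a correction with splines of GC content and exon length (5 degrees of freedom each) were added after the data were seen. Shared sequence is the percentage of 31-base sequences of a gene that also occur in transcripts of other genes.

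The members and the lists were chosen with earlier results of these data known. Named are all members, every gene called in a list, the 3 genes of each list with the largest fold change, genes whose groups did not overlap, the constitutive proteasome and PA28 subunits, and the 5 genes most like the members. Values of 2 list genes are not reported here. Tables and figures were made with pandas 2.3.3, numpy 2.4.6 and matplotlib 3.10.9.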

Additional observations from a re-analysis of the deposited data

How the results depend on the processing

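All 140 fold changes of the 10 genes under the 14 alternatives were below 0, between -1.54 and -0.05 in log2. No filter, the fit that was not robust and the replicate block cannot alter these fold changes, and gave the main values again. The other alternatives reuse the same libraries, and the members were chosen from the comparison of PM2.5 with control. The count is therefore a description only. The members' median lay between -0.79 and -0.32. The 2 nearest to 0 with control replicate 2 and PM2.5 replicate 3 left out together were Tap2 at -0.05 and Psmb10 at -0.13. Scaling to the total of recovered reads raised the median of all genes by 0.11, left the members' median at -0.65 relative to it (-0.67 in the main analysis) and reduced the members whose groups did not overlap from 8 to 5, while the share of all genes tested went from 6.85% to 4.86%.

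The number of genes called, 11 in the main analysis, was 0 with no filter (25594 genes tested), 6 with scaling to total reads, 0 with voom and 0 with the replicate block. Leaving out 1 library at a time gave 0 to 118 genes, 0 members in each case, and 0 to 4 other antigen presentation genes; 118 and 4 came without control replicate 2 and 0 without each of the others. With control replicate 2 and PM2.5 replicate 3 left out together, 5602 of the 11884 genes tested were called, 2804 of them lower (23.6% of those tested). Of the 10 members 7 were called, all lower. Of the 57 other antigen presentation genes 32 were called, 27 of them lower. The cause of these changes was not tested.

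Deviations from the group mean correlated at -0.28, 0.18 and 0.25 between replicates of number 1, 2 and 3. Of the PM2.5 libraries only replicate 2 correlated best with the control of its own number. Deviations cancel out within a group, so a library that stood apart shapes those of its replicates. These values cannot decide whether the numbers pair the libraries. The numbers were not taken to pair the libraries, and no call was read from the replicate block. Among the members, depth limits Nlrc5 and Psmb9 most, with as few as 162 and 157 reads. Genes of the other lists can have fewer, such as Cd74 with about 5 reads in PM2.5 replicate 3 and Hfe with 36 in control replicate 2. The p-values rest on 3 libraries in each group.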
